A study of Mus musculus with 36 samples.

Results

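The 6 wildtype mice of the CamkII-Cre control experiment were each measured on 2 BeadChip arrays, which the sample titles call technical replicates 1 and 2. These 12 arrays, of 36 arrays and 23 mice in the whole series, were chosen by their titles and not by any measured value. They allow the variance of every transcript to be split into a part that recurs on both arrays of a mouse and a part that does not. The mice were male, of the C57BL/6J strain and 6 months old, carried no transgene, and gave total RNA of the complete hippocampus. The CamkII-Cre littermates used for comparison, 6 males of the same age on 12 arrays, were heterozygous for a Cre transgene driven by the CamkIIa promoter, which is active in principal neurons of the forebrain. The Braf-flox mice used as a second background, 6 males aged 4 months on 1 array each, were homozygous for a loxP-flanked Braf allele, carried no Cre and belonged to another experiment with its own normalization. The authors describe the strain of these Braf-flox mice as mainly C57BL/6J with a smaller part from FVB. What this mixed strain adds to their spread was not tested. The labels do not say whether the arrays of a mouse were split at the RNA, the labelled cRNA or the hybridization, nor do they give a chip or a position. Differences between mice in life, in dissection, in RNA extraction and in any later step before the split cannot be told apart here.

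Inbred mice of a single genotype are near-identical in sequence, so their tissues differ mainly through state and sampling. Transcripts known to move between such animals include immediate early genes, which neurons switch on within minutes of activity, genes driven by circulating glucocorticoids, and genes of the daily clock. A dissected hippocampus can also carry more or less of its neighbours, above all the choroid plexus, the secretory epithelium that makes cerebrospinal fluid and lies against the hippocampal fimbria in the lateral ventricle. In bulk tissue, fewer cells of a type and less RNA per cell cannot be told apart.

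The deposited intensities were normalized by the authors, with array medians between 65.04 and 70.2 in the wildtype mice and between 64.98 and 69.1 in the CamkII-Cre mice. Both technical sets of the wildtype mice differed in level, since 10603 of 23316 tested probes (45.5%) were shifted between them, 8134 of them lower in set 2, with a median absolute shift of 0.15 log2 units. Each probe was therefore centred within its set. Markers of the hippocampus were bright in every mouse. Log2 intensities ran from 12.02 to 12.27 for *C1ql2* of dentate granule cells and from 12.07 to 12.39 for *Fibcd1* of CA1 pyramidal cells.

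Many hippocampal transcripts differed between wildtype mice beyond the scatter between their own arrays. The moderated F test of limma, over the 6 mice, passed for 5870 of the 23316 probes tested (25.2%) at an adjusted p under 0.05, and 9159 (39.3%) had an unadjusted p under 0.05. The intraclass correlation, which is the share of a probe's variance that lay between mice, had a median of 0.44 with quartiles of 0.076 and 0.73. It was above 0.9 for 1699 probes and below 0, where replicate arrays differed more than mice, for 4923. The median standard deviation (SD) was 0.087 log2 units between mice and 0.105 between the arrays of a mouse. Among the 5870 probes that passed, these were 0.199 and 0.092, and the median range from the lowest to the highest mouse was 0.57 log2 units. A range over 1 log2 unit was found for 383 of them. Most reproducible differences between these mice were thus small.

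**Figure D1:**
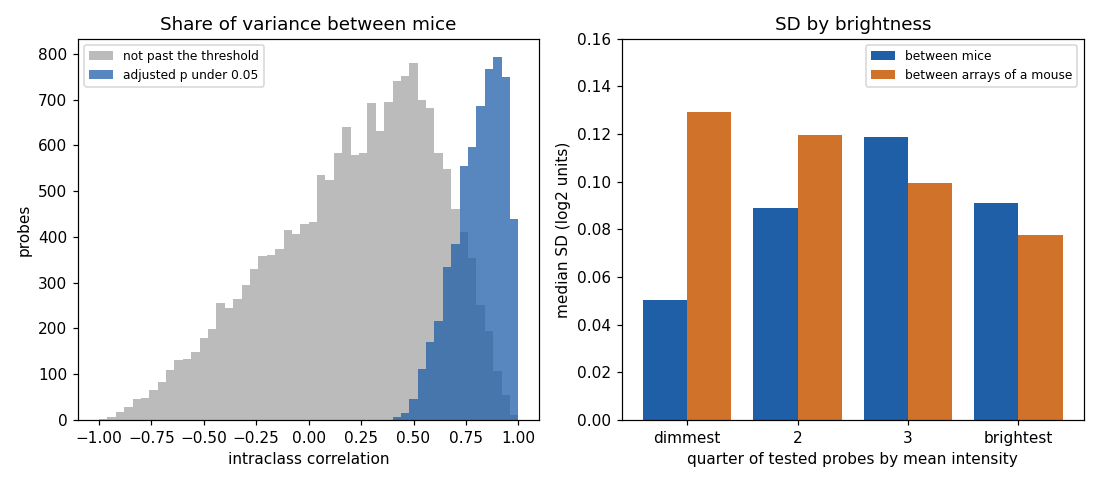
Left, number of tested probes by intraclass correlation, for probes that did or did not differ between wildtype mice. Right, median SD between mice and between arrays of a mouse (log2 units) in 4 equal bins of the tested probes by mean intensity. In the dimmest bin the arrays of a mouse differed more (0.129) than the mice did (0.0503), and in the second brightest bin the mice differed more (0.119) than the arrays (0.0995).

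How often mice differed depended on brightness. The share that passed was 8.72% in the dimmest of 4 equal bins of the tested probes, 24.6% and 38.9% in the next ones and 28.5% in the brightest. The median intraclass correlation was 0.153 in the dimmest bin and 0.601 in the brightest. For a gene with several probes, the brightest tested probe stood for the gene in all lists below. On this basis 2780 of 11740 genes (23.7%) differed between wildtype mice, which is the background for the counts of list members.

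Genes of the choroid plexus had the largest median SD between mice of the 33 lists compared (0.995 log2 units). Of its 27 genes, 23 were on the array and 21 were tested, of which 18 differed between mice. The 3 that did not pass were the transporter genes *Slc4a5* and *Slc13a4* and the transcription factor gene *Otx2*, which spanned 6.32 to 6.53. *Ttr*, which encodes the thyroid hormone carrier transthyretin of the cerebrospinal fluid, was at 7.23 in the lowest mouse, at a median of 9.28 and at 14.95 in the highest, a 212-fold range. Mice 3 and 4 were far above the others, mouse 5 lay between, and both arrays of each mouse gave the same order. The SD of *Ttr* was 3.37 log2 units between mice and 0.141 between arrays, the intraclass correlation was 0.998 (95% confidence interval 0.988 to 1.00) and the adjusted p was 4.03e-12.

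All 18 choroid plexus genes that passed were highest in mouse 3. *Clic6*, a chloride channel protein, ran from 6.48 through a median of 6.90 to 11.08 (adjusted p = 1.2e-09). *Ecrg4*, a secreted peptide precursor, ran from 6.85 through 7.53 to 11.27 (adjusted p = 1.23e-10). The water channel gene *Aqp1* ran from 6.11 through 6.58 to 9.18 (adjusted p = 6.54e-08). Here too mouse 3 was the highest and mouse 4 the next, with no overlap between these and the other mice. The folate receptor gene *Folr1* (highest mouse 8.93, median 6.10), the tight junction gene *Cldn2* (highest mouse 9.07, lowest 4.99), *Kl*, the gene of the ageing hormone klotho (highest mouse 9.76, median 7.48), *Ace*, the gene of angiotensin-converting enzyme (9.37 and 7.08), and the BMP and Wnt antagonist gene *Sostdc1* (9.58 and 6.90) showed the same order. *Cdkn1c*, which encodes the cell cycle inhibitor p57, ran from 7.65 through 8.03 to 10.08 with an intraclass correlation of 0.998. Of the 21 tested genes, 19 were highest in mouse 3, and *Otx2* and *Slc13a4*, which did not pass, in mouse 6.

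The mean log2 level over the 21 genes was 6.60 in the lowest mouse, 6.86 at the median and 9.18 in the highest, with an SD of 1.04 between mice and 0.053 between arrays. The summed intensity of the list ran from 2959 through 3840 to 47080. The part of this tissue in the results for other genes was not tested beyond the fits given below. In the CamkII-Cre littermates, fitted apart, 16 of these genes differed (19.8% of all genes did), and mice 2 and 5 of that group had list means of 8.52 and 8.28 while the other 4 lay between 6.86 and 6.98. High choroid plexus levels were thus found in 2 of 6 mice of each genotype.

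Of the 20 genes with the largest SD between mice, 12 were on the choroid plexus list, among them *Wfdc2*, which encodes a secreted whey acidic protein (SD 1.60), *Calml4*, a calmodulin-like gene (1.29), and *F5*, the gene of coagulation factor V (1.07). Of the 8 that were not, 5 were highest in mouse 3 as well. These were *Defb11*, a defensin gene (SD 1.48), *Wdr86* (1.20), *Cox8b*, a subunit gene of cytochrome c oxidase (1.16), *Rbm47*, an RNA-binding protein gene (1.11), and *Rdh5*, a retinol dehydrogenase gene (1.03). The other 3 were *Pisd-ps3*, *Lbhd2* and *Lcn2*. Without mice 3 and 4, *Defb11*, *Wdr86* and *Rbm47* fell below the brightness filter, as did *Cldn2*, *Folr1* and *F5* of the choroid plexus list. These genes were tested only because mice 3 and 4 raised their mean, so their calls and order are no separate support. In that fit 7 genes of the choroid plexus list passed, against 18 with all mice. Among the 383 probes with a range over 1 log2 unit, 81 (21.1%) correlated with the choroid plexus level at r above 0.9 over the 6 mice, given as a description. Among all 5870 probes that passed, these were 184 (3.13%). Both counts were taken with the probes of the list left in, whose own mean is that level. When the choroid plexus level of each mouse was entered as a covariate, 5293 probes (22.7%) still passed, 4959 of which had passed without it. Without mice 3 and 4, 4882 probes (20.9%) passed, 4348 of which had passed with all 6 mice.

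Cells that line the ventricle and the brain surface moved in part with these mice. All 6 tested genes of ependyma, the ciliated layer of the ventricle wall, differed. The dynein chain gene *Dynlrb2* ran from 8.04 through 8.52 to 9.39 (adjusted p = 5.08e-06) and the radial spoke gene *Rsph1* from 8.12 through 8.51 to 9.42 (adjusted p = 6.16e-06). Mice 3 and 4 were the highest for both genes and mice 1 and 6 the lowest. With the choroid plexus level as a covariate, 4 of the 6 still passed. Of 9 tested genes of meninges and fibroblasts, 6 differed. The growth factor gene *Igf2*, which meninges and choroid plexus both express, ran from 10.68 through 11.08 to 13.12 and was highest in mouse 3 (adjusted p = 2.12e-07, and 0.0509 without mice 3 and 4). *Dcn*, the gene of the matrix proteoglycan decorin, followed another order and ran from 10.05 through 11.28 to 11.60, with mouse 6 far below the rest (adjusted p = 6.37e-05).

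**Figure D2:**
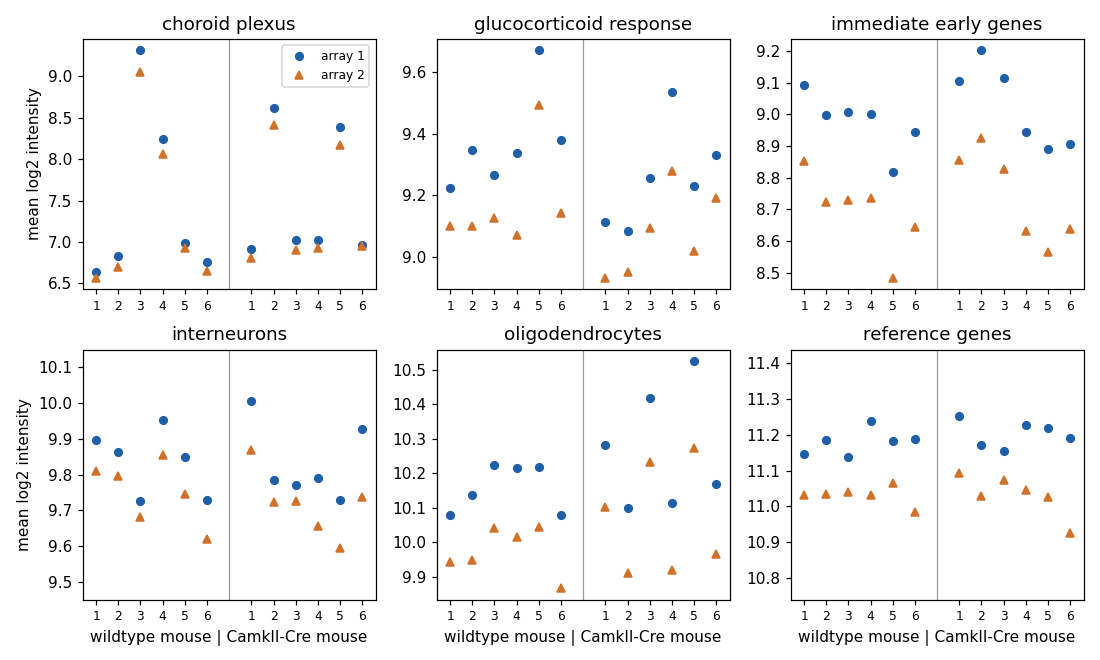
Mean log2 intensity over the tested genes of 6 lists for each wildtype mouse (left of the line) and each CamkII-Cre mouse (right), with technical arrays 1 and 2 as separate points. The choroid plexus mean was 8.06 or above on every array of 2 mice of each genotype and 7.03 or below on all others, and reference genes showed no such spread.

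Genes outside the choroid plexus pattern also recurred on both arrays of a mouse with great precision. *Pisd-ps3*, a pseudogene related to phosphatidylserine decarboxylase, ran from 7.92 through 9.63 to 11.90, a 15.8-fold range. Mice 5 and 3 were the highest and mouse 1 the lowest. The SD was 1.52 between mice and 0.104 between arrays (adjusted p = 1.63e-09). It varied among the CamkII-Cre mice as well, from 8.09 through 8.41 to 10.82 (adjusted p = 5.47e-08).

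Other genes had a narrower range and an intraclass correlation above 0.99. *Gpm6a*, a membrane glycoprotein gene of neurons, ran from 10.33 through 10.98 to 11.19. Mouse 6 was the lowest, with all others at 10.86 or above, while the arrays of a mouse had an SD of only 0.015 (adjusted p = 0.00013). *Taf15*, which encodes an RNA-binding protein of the FET family, ran from 8.13 through 8.52 to 9.16, with mice 1, 4 and 5 at 8.75 or above and mice 2, 3 and 6 at 8.30 or below (adjusted p = 1.64e-05). Its SD was 0.432 between wildtype mice and 0.0695 between CamkII-Cre mice, where the test was not passed (adjusted p = 0.361), and 0.901 among Braf-flox mice. Whether these spreads differ was not tested. *Ptprs*, a receptor phosphatase gene of axons, ran from 9.67 through 9.82 to 10.68 and was high in mouse 2 (adjusted p = 3.1e-05). These are values of the brightest probe of each gene. As given below, the second probe of *Gpm6a* did not pass, that of *Ptprs* ordered the mice otherwise, and *Taf15* had a single tested probe.

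**Figure D3:**
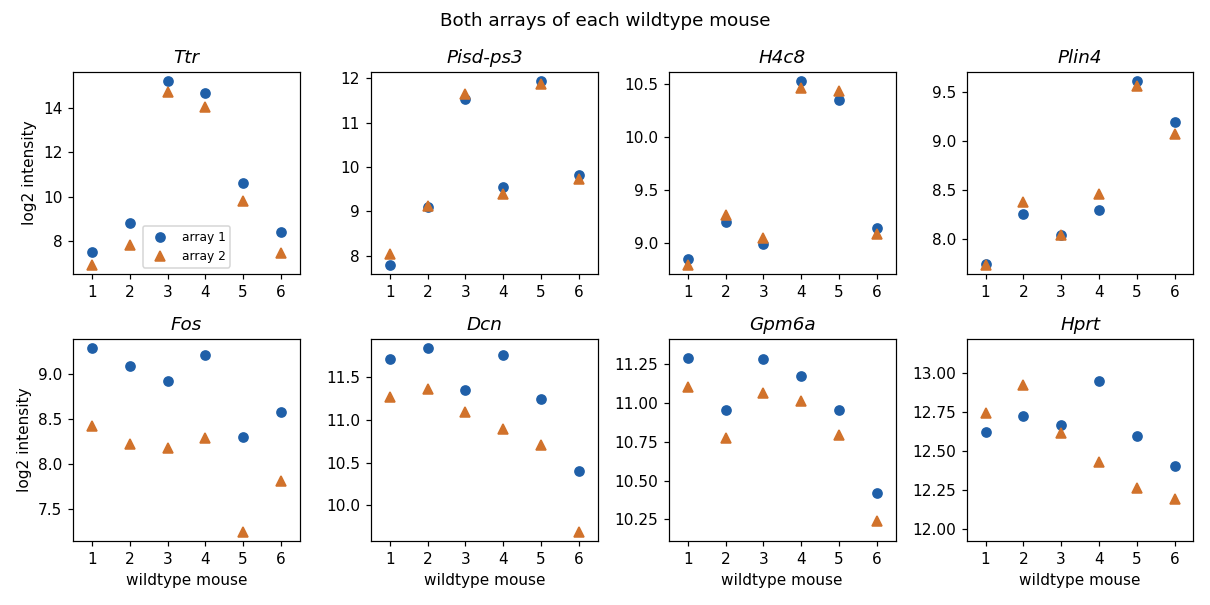
Log2 intensity of 8 genes in each of the 6 wildtype mice, with both arrays of a mouse as separate points. For the first 7 genes the highest or the lowest mouse is the same on both arrays, whatever the shift between the sets, while the mice between change places for some genes such as *Dcn*, and *Hprt*, a reference gene with an intraclass correlation of 0.33, is shown as a contrast.

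Some markers of regions next to the hippocampus or at its ventral pole were highest in mouse 4, and others on the same lists were not. *Zic1*, a transcription factor gene of septum and thalamus, ran from 7.15 through 7.39 to 9.65 (adjusted p = 6.64e-07). *Gh*, the growth hormone gene, ran from 6.02 through 6.12 to 8.05 (adjusted p = 7.68e-07). *Dlk1*, a Notch ligand homologue, ran from 6.95 through 7.52 to 8.89 (adjusted p = 2.1e-06), and *Prkcd*, a protein kinase C gene of thalamic neurons, from 8.35 through 8.61 to 9.34 (adjusted p = 0.00021). *Lbhd2*, which is on no list, ran from 5.90 through 6.18 to 9.25 (adjusted p = 1.3e-08). Mouse 4 was the highest for all 5 genes. Without mouse 4, *Gh* (adjusted p = 0.682) and *Prkcd* (adjusted p = 0.0719) no longer passed. Of 10 thalamus genes 3 differed, and 2 of the 10 were highest in mouse 4, 4 in mouse 1. The third thalamus gene that passed, *Rgs16*, a regulator of G protein signaling, was highest in mouse 1 (7.53, against 7.33 in mouse 4, adjusted p = 0.00469). Of 5 genes of hypothalamus and pituitary 2 differed, and none did without mouse 4. Of 5 genes of the ventral hippocampus 4 differed (2 without mouse 6), among them *Nr2f2*, a nuclear receptor gene, which was highest in mouse 1 (7.88, adjusted p = 0.00354). Of 2 habenula genes *Nwd2* passed, with mouse 2 the highest, but not without mouse 2 (adjusted p = 0.229) or mouse 6 (0.119). The thalamus gene *Tcf7l2* did not pass (8.44 to 8.76, adjusted p = 0.122), nor did *Pmch* and *Oxt* of the hypothalamus, which spanned 6.21 to 6.42 and 6.18 to 6.31. In the immature granule cell list 2 of 6 genes differed, the calcium-binding protein gene *Calb2*, which ran from 9.79 through 10.13 to 10.97, and *Igfbpl1*, from 6.03 through 6.16 to 6.94. Both were highest in mouse 4, and *Igfbpl1* did not pass without it (adjusted p = 0.126). *Sox11* (adjusted p = 0.148) and *Tubb3* (adjusted p = 0.183), also on this list, did not pass.

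Of 8 neocortex genes 6 passed, and 3 did without mouse 1. Among the 6 were *Ccn2*, a matrix gene of deep cortical layers, which ran from 7.87 to 8.57, and *Lamp5*, a neuronal lysosome-associated gene, which ran from 10.48 through 10.63 to 10.98. Mice 1 and 2 were the highest for both, and *Lamp5* did not pass without mouse 1 (adjusted p = 0.135). *Scnn1a* of this list also passed (adjusted p = 0.00371) but in another order, with mouse 6 the highest and mouse 2 the lowest. Of the 8 genes, 2 were highest in mouse 1, 3 in mouse 2, 1 in mouse 3 and 2 in mouse 6. Of 10 striatum genes 5 passed (3 without mouse 2), led by the G protein subunit gene *Gng7* (adjusted p = 0.00143) and *Ppp1r1b*, which encodes DARPP-32 (adjusted p = 0.00165), the former high in mice 5 and 6 and the latter in mouse 3, without which it did not pass (adjusted p = 0.126). The mean of the striatum list had an SD of only 0.0065 between mice, below its SD of 0.0411 between arrays, so its members did not share an order of mice.

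Genes that respond to glucocorticoids were mostly highest in the same mouse. Of 19 tested genes 12 differed, and 15 of the 19 were highest in mouse 5. *Plin4*, a lipid droplet protein gene, ran from 7.74 through 8.35 to 9.59 (SD 0.695 between mice and 0.0726 between arrays, adjusted p = 6.61e-07). Mice 5 and 6 stood above the rest. *Cdkn1a*, which encodes the cell cycle inhibitor p21, ran from 8.52 through 8.98 to 9.52 (adjusted p = 0.000133), and *Xdh*, the xanthine dehydrogenase gene, from 7.17 through 7.43 to 8.17 (adjusted p = 0.000157). Mouse 5 was the highest for both, with mouse 6 the lowest for *Cdkn1a*. The glucocorticoid receptor cochaperone gene *Fkbp5* was high in mice 5 and 6 alike (9.54 and 9.58, against 9.11 or less elsewhere). The kinase gene *Sgk1* departed from this order, with mouse 3 the highest at 12.64 and mouse 5 at 12.61. The list mean was 9.16 in the lowest mouse, 9.21 at the median and 9.58 in the highest. Of the 19 genes 18 were tested in the CamkII-Cre mice, where 11 differed, and the highest list mean there was 9.41.

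*Mt2*, the gene of a metallothionein that glucocorticoids and metals both induce, ran from 8.67 through 8.94 to 9.33 and was high in mice 5 and 6 (adjusted p = 0.00122). Its promoter is shown because metal response elements, the sites through which metals act on this gene, lie close to its start. The 250 bases before the start of *Mt2* (RefSeq, GRCm38.p6, chr8:94172368-94172617, plus strand) are given 5′ to 3′, with the 5 matches to TGCNCNC on either strand in capitals.
Mt2: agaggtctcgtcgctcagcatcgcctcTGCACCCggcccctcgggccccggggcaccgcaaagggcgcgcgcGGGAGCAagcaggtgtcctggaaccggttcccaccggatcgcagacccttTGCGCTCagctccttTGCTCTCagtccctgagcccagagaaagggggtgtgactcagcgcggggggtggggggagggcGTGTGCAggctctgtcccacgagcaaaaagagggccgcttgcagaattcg
The letters TGCNCNC are a loose form of the element, so a marked stretch need not be one. This short motif was found in 43.8% of 27025 mouse promoters of that length. It was also found in 10 of the 16 promoters matched to the tested glucocorticoid genes, so a match alone says little.

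Chaperone genes were less uniform. Of 14 tested heat shock and chaperone genes 6 differed, and 3 did without mouse 5. The small heat shock protein genes *Hspb1* (8.55, median 9.03, highest 9.13) and *Cryab* (12.15, 12.35 and 12.71) had their lowest mean level in mouse 1. On array 2, however, *Cryab* was lower in mouse 6 (12.10) than in mouse 1 (12.17). *Cryab* was highest in mouse 5, while for *Hspb1* mouse 4 was highest on array 1 and mouse 2 on array 2. *Hspb1* did not pass without mouse 1 (adjusted p = 0.243), nor *Cryab* without mouse 5 (adjusted p = 0.111). None of 12 genes of the hypoxia response passed the limma test, with 2 at an unadjusted p under 0.05, and 1 passed in CamkII-Cre mice. *P4ha1*, a prolyl hydroxylase gene, had the smallest adjusted p of that list (0.0868), and *Vegfa*, the vascular growth factor gene, ran from 9.67 through 9.76 to 9.98 (adjusted p = 0.106).

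Immediate early genes differed between the mice, with an order of their own. Of 24 tested genes 13 passed, 11 were highest in mouse 1 and 10 were lowest in mouse 5. *Fos*, an AP-1 transcription factor gene, ran from 7.78 through 8.61 to 8.86 (SD 0.403 between mice and 0.0799 between arrays, adjusted p = 8.42e-05), with mouse 5 and then mouse 6 below all others. *Arc*, which encodes a cytoskeletal protein of active synapses, ran from 10.43 through 10.92 to 11.39 (adjusted p = 0.000241), with mouse 1 the highest and mouse 5 the lowest. *Junb*, another AP-1 gene, ran from 8.65 through 9.50 to 9.84 (adjusted p = 9.97e-05), with mouse 2 far below the rest. *Nptx2*, which encodes a pentraxin that gathers glutamate receptors, ran from 8.03 through 8.14 to 8.99, with mouse 2 the highest (adjusted p = 0.000191). *Dusp1*, a phosphatase that ends MAPK signaling, was at 10.79 in mouse 1 and at 10.06 in mouse 5. The genes of this list thus did not share a single order. The list mean ran from 8.65 through 8.86 to 8.97. This mean was lowest in mouse 5, the mouse with the highest mean of the glucocorticoid list.

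The promoters of *Fos*, *Junb* and *Dusp1* are shown because all 3 hold the core of the cyclic AMP response element, the site of the activity-regulated factor CREB. *Fos* and *Junb* were both highest in mouse 1, with *Fos* lowest in mouse 5 and *Junb* in mouse 2. The part of this core in their levels was not tested. Each is the 250 bases before the start (RefSeq, GRCm38.p6), 5′ to 3′ on the strand of the gene, with matches to TGACG on either strand in capitals. *Fos* lies at chr12:85473640-85473889 (plus strand), *Junb* at chr8:84978749-84978998 (minus strand) and *Dusp1* at chr17:26508473-26508722 (minus strand).
Fos: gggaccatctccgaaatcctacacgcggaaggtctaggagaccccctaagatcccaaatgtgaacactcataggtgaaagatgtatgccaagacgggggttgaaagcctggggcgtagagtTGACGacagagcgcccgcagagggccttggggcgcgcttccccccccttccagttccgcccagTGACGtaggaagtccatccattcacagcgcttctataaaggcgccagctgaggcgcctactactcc
Junb: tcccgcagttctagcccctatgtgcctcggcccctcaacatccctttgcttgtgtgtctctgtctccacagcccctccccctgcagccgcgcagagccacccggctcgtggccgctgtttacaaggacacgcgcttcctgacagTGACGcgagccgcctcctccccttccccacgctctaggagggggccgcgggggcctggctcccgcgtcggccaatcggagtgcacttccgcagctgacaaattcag
Dusp1: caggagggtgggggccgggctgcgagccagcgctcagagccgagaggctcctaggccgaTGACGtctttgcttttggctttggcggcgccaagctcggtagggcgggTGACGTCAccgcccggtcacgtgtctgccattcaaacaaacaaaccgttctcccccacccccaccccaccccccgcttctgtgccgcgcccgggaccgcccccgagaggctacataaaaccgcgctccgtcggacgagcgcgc
The core was found in 17.9% of all promoters of this length and in 11 of the 19 promoters that could be matched to tested immediate early genes, 5 of them among the 9 matched genes that differed. In *Dusp1* overlapping matches on both strands form the full element TGACGTCA, which 1.62% of all promoters hold. A match is a description of the letters and not a site in use.

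Of 15 tested genes of the circadian clock 8 differed, and 5 did without mouse 2. *Per1*, a light- and hormone-induced period gene, ran from 9.17 through 9.32 to 9.78, with mouse 1 the highest (adjusted p = 0.00339). *Npas2*, a partner of the clock activator BMAL1, ran from 7.49 through 7.94 to 8.23, with mice 1 and 2 the highest and mouse 6 the lowest (adjusted p = 0.00267). *Per3* ran from 9.08 through 9.34 to 9.58, and here mouse 6 was the highest and mouse 1 the lowest (adjusted p = 0.00939). *Nr1d2*, which encodes a nuclear receptor that represses clock genes, ran from 7.67 through 8.23 to 8.52 (adjusted p = 0.0137). *Dbp*, the output factor with the widest daily swing in many tissues, spanned 11.14 to 11.56. All 15 ranges were under 1 log2 unit, the widest being 0.84. *Per1* did not pass without mouse 1 (adjusted p = 0.110), *Npas2* without mouse 6 (0.0584) or *Nr1d2* without mouse 2 (0.156). The labels give no hour of death.

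Markers of the principal neurons of the hippocampus itself also varied. For CA1 pyramidal cells 5 of 7 genes differed (3 without mouse 2 or mouse 5), led by *Spink8*, a protease inhibitor gene, which ran from 8.45 through 8.81 to 9.16 (adjusted p = 0.00184). For CA2 and CA3 pyramidal cells 6 of 11 differed, but 1 did without mouse 2 and 3 without mouse 6. The 6 were led by the channel subunit gene *Cacng5*, which ran from 7.29 through 7.39 to 8.23 with mouse 4 the highest (adjusted p = 0.000701, and 0.229 without that mouse). For dentate granule cells 2 of 9 differed, a count close to the background. Those were the cytokine gene *Il16*, from 7.56 through 7.99 to 8.56 (adjusted p = 0.000107), and the channel gene *Trpc6* (adjusted p = 0.0452), which did not pass without mouse 1 (0.0657), mouse 2 (0.0986), mouse 4 (0.0539) or mouse 6 (0.0897). The granule cell factor gene *Prox1* spanned 9.11 to 9.43 and did not pass. Even so, 7 of the 9 granule cell genes were highest in mouse 6. Their list mean ran from 8.31 through 8.42 to 8.66, with an SD of 0.124 between mice and 0.0343 between arrays.

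Of 13 genes of interneurons 7 differed, and 4 did without mouse 1. *Gad1*, which encodes a GABA-synthesizing enzyme, ran from 11.96 through 12.18 to 12.49, with an SD of 0.208 between mice and 0.0299 between arrays (adjusted p = 0.00306). *Slc32a1*, the vesicular GABA transporter gene, ran from 12.15 through 12.34 to 12.80 (adjusted p = 0.00309), and *Dlx1*, a developmental factor gene of these cells, from 8.16 through 8.49 to 9.12 (adjusted p = 0.000796). Mouse 4 was the highest for all 3 genes, and without it *Slc32a1* did not pass (adjusted p = 0.195). *Pvalb*, the marker of fast-spiking cells, spanned 11.72 to 11.90, with mouse 4 the lowest, and did not pass. Of 14 neuropeptide genes 4 differed, *Tac1*, *Cartpt*, *Npy* and *Nts*, the last not without mouse 2 (adjusted p = 0.212). *Npy*, which encodes neuropeptide Y, ran from 11.20 through 11.41 to 11.71 (adjusted p = 0.00745). The somatostatin gene *Sst* stayed within 12.41 and 12.58 and did not pass.

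Glia and vessels lay closer to the background. Of 16 astrocyte genes 6 differed, led by *Gfap*, the intermediate filament gene of astrocytes, which ran from 10.85 through 11.45 to 11.65 with mouse 2 the lowest (adjusted p = 0.000498). The list mean showed no spread between mice beyond that between arrays. Of 22 oligodendrocyte genes 7 differed (4 without mouse 3, 5 or 6), led by the lipocalin gene *Apod* (11.68, median 11.84, highest 12.13, adjusted p = 0.0135, and 0.0913 without mouse 5). In CamkII-Cre mice 20 of them differed, and the SD of the list mean was 0.0668 in wildtype and 0.166 in CamkII-Cre mice. Whether these SDs differ was not tested. Of 16 microglia genes 2 differed, *Ctss* and *Gpr34*. *Gpr34* did not pass without mouse 1 (adjusted p = 0.0595), mouse 2 (0.168) or mouse 3 (0.122), nor with the choroid plexus covariate (0.0554), and no microglia gene passed without mice 3 and 4. The microglia marker *Tmem119* (adjusted p = 0.141) did not pass. Of 25 endothelial and mural cell genes 8 differed (5 without mouse 6), led by the pericyte gene *Rgs5*, which ran from 8.18 through 8.78 to 8.99 with mouse 6 the lowest (adjusted p = 0.000789, and 0.125 without that mouse).

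Of 6 tested blood genes 4 differed. The beta globin gene *Hbb-bt* ran from 13.01 through 13.22 to 13.70 and *Hbb-bs*, whose probes may share targets with it, from 12.97 through 13.28 to 13.65. Mouse 4 was the highest and mouse 5 the lowest for both. *Lcn2*, which encodes a secreted lipocalin of neutrophils and of inflamed glia, was at 8.14 in mouse 5 and between 5.59 and 6.23 in the other 5 mice (SD 0.964 between mice and 0.116 between arrays, adjusted p = 1.64e-07). The neutrophil gene *Camp* did not pass (6.64 to 6.91). Of 8 genes of the interferon response 4 differed, led by *Bst2*, an antiviral membrane protein gene, which ran from 6.64 through 6.84 to 7.52 (adjusted p = 0.000353). Mice 3 and 4, those with high choroid plexus levels, were the highest for *Bst2*, which did not pass with the choroid plexus covariate (adjusted p = 0.125) or without both mice (0.192). The interferon count fell to 2 and 1 in these fits. Of 8 genes of MHC and antigen presentation 3 differed, led by *Cd74*, the invariant chain gene, which ran from 6.15 through 6.40 to 6.87 (adjusted p = 0.00153, and 0.0904 without mice 3 and 4). The SD of *Cd74* over single arrays of 6 Braf-flox mice was 1.64 log2 units. Of 4 genes of JAK-STAT feedback 2 differed, *Cish* and *Socs2*, the latter not without mouse 2 (adjusted p = 0.0823) or mouse 6 (0.229).

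Housekeeping genes were compared as well. None of 9 reference genes passed the limma test in wildtype mice, with 4 at an unadjusted p under 0.05, while 1 did in CamkII-Cre mice. Without mouse 4, 2 of the 8 then tested passed, and 1 of 9 did without mouse 5. *Actb*, the beta actin gene, ran from 13.88 through 13.97 to 14.23 (adjusted p = 0.0542) and *Gapdh* from 15.15 to 15.37. Of 48 cytoplasmic ribosomal protein genes 4 differed (8.33%, and 2 genes without mouse 1 or mouse 5). Of 66 respiratory chain genes 15 differed (22.7%), close to the share of all genes. *Rpl35a*, a gene of the large ribosomal subunit, ran from 10.69 through 11.20 to 11.47 (adjusted p = 0.000444) and *Ndufb9*, a complex I gene, from 7.43 through 8.11 to 8.44 (adjusted p = 9.38e-05). Both were shifted between the sets by more than between any mice, by -1.12 and -1.16 log2 units in set 2.

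Of 4 tested Y-linked genes and *Xist* only *Kdm5d* passed, within 5.91 and 6.41 (adjusted p = 0.0264, and 0.0686 without mouse 1), and *Xist* stayed between 6.22 and 6.49 in these males. Of 3 genes in segments that vary in copy number between C57BL/6 stocks, *Ide* passed (8.97, median 9.18, highest 9.66, adjusted p = 0.00334, and 0.0832 without mouse 2). *Glo1* had a median of 11.98 and a range of 0.038 log2 units, and *Nnt* lay within 6.15 and 6.51. The largest SDs between arrays of a mouse were those of *Laptm4b* (0.619), *Psmc1* (0.480), *Arhgap27* (0.466), *Sgcd* (0.445) and *Adamts15* (0.443). None of the 5 differed between mice.

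**Figure D4:**
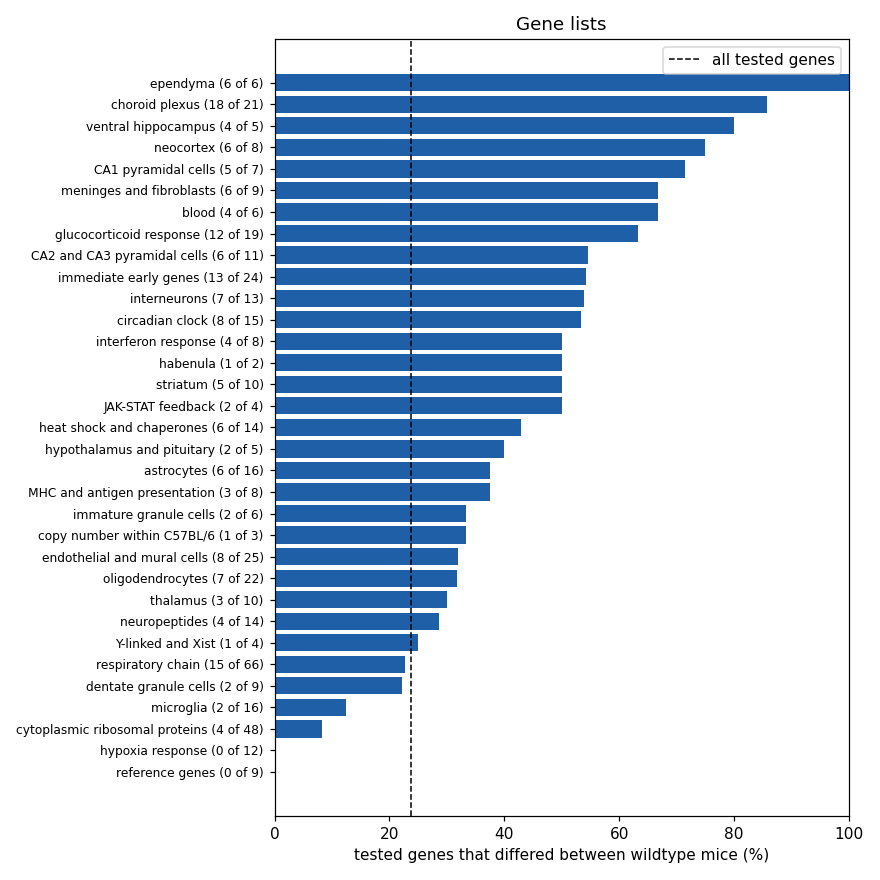
Share of tested genes of each list, at the brightest probe of a gene, that differed between wildtype mice, with counts in the labels. The dashed line marks the 23.7% of all 11740 tested genes that differed, and the lists range from 0 of 9 reference genes to 6 of 6 ependyma genes.

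Mice numbered 1 to 3 and 4 to 6 were compared as a possible split that the labels do not describe. No probe passed this limma test (0%), with 3015 at an unadjusted p under 0.05. When both groups of numbers were fitted as blocks, 5207 probes differed between mice within them, 4411 of which were among the 5870. Over both genotypes together, 745 probes differed between numbers 1 to 3 and 4 to 6, 494 of them higher in 4 to 6. Over the tested probes this difference correlated between wildtype and CamkII-Cre mice with r = 0.57, given as a description over genes, which are not independent replicates. The labels do not say what mice of the same number share, so they cannot tell a litter, a day and a chip apart. In set 2, array medians were 65.04 to 66.81 in wildtype mice 1 to 3 and 68.02 to 68.58 in mice 4 to 6. In CamkII-Cre mice they were 64.98 to 66.01 and 68.39 to 69.06. In set 1 the ranges of both groups of numbers overlapped in each genotype, with wildtype medians of 67.35 to 70.15 and 67.31 to 68.27. This step was thus seen in set 2 and not in set 1 of the same mice. Its part in the difference between numbers was not tested. The mouse farthest from the median of all 6 was mouse 6 for 31.1% and mouse 2 for 25.1% of the probes that passed, and mouse 4 for only 6.30%.

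Wildtype and CamkII-Cre mice share no arrays, so the second group shows other animals. They are littermates, however, with the same set and number labels. The difference between numbers 1 to 3 and 4 to 6 correlated between the genotypes (r = 0.57). The second group is therefore not an independent repeat, and what the overlap owes to shared handling was not tested. In CamkII-Cre mice 5000 of 23316 probes differed (21.4%), and the median intraclass correlation was 0.42. Of these, 2972 also differed in wildtype mice, which is 50.6% of the wildtype and 59.4% of the CamkII-Cre probes that passed. Over the 22889 probes tested in both, the SD between mice had a Spearman correlation of 0.48, and the intraclass correlation one of 0.42, both as descriptions that include shared brightness. In Braf-flox mice, with 1 array each, the median SD was 0.161 for the probes that differed in wildtype mice and 0.135 for the others. *Ttr* had SDs of 3.37, 2.49 and 2.45 in wildtype, CamkII-Cre and Braf-flox mice, and *Plin4* SDs of 0.695, 0.838 and 0.710. *Arc* was wider in Braf-flox mice (0.916) than in wildtype (0.313), and so was *Fos* (0.961 and 0.403), in values that for Braf-flox include the array error. Genes with a wide spread in wildtype and a narrow one in CamkII-Cre mice included *Taf15* and *Gh* (0.789 and 0.295), and *Trh*, the thyrotropin-releasing hormone gene, went the other way (0.158 and 0.950). *Trh* was near the threshold in wildtype mice (adjusted p = 0.0449) and did not pass without mouse 1, 2, 4, 5 or 6 in turn (adjusted p from 0.0517 to 0.417). None of these differences between genotypes was tested.

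**Figure D5:**
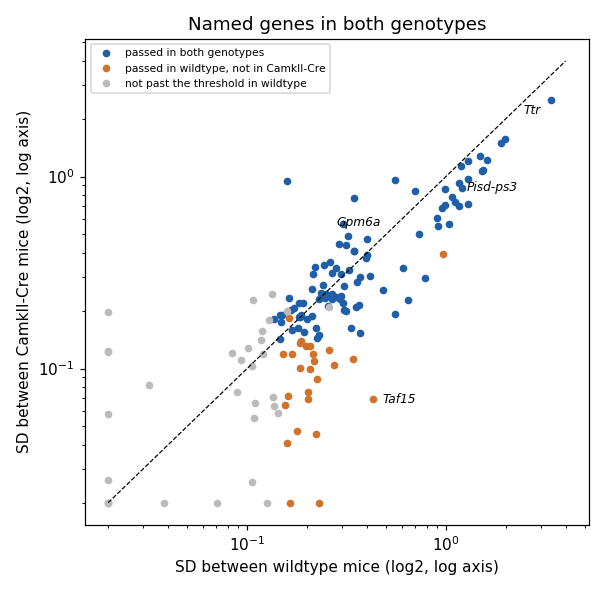
SD between wildtype mice and between CamkII-Cre mice for the named genes (log2 units, both axes logarithmic, values under 0.02 drawn at 0.02), coloured by the tests passed. The dashed line marks equal SDs, *Ttr* lies at 3.37 and 2.49, and *Taf15* at 0.432 and 0.0695.

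Different probes of the same gene gave a further view, since they share the RNA but not the probe. For 3791 genes a second probe was tested. It differed between wildtype mice for 36.04% of the 1060 genes whose brightest probe differed and for 26.9% of the others. Over all 1060 genes whose brightest probe differed, the median correlation of the mouse means between probes was 0.27. Where neither probe differed it was 0.12. Where both differed (382 genes), this median was 0.66 over the 6 mice, 147 genes were above 0.8 and 93 below 0. Both probes of *Hbb-bt* (r = 0.995), *Gad1* (0.837) and *Gfap* (0.847) ranked the mice alike. Both probes of *Ptprs* differed between mice but in unlike orders (r = -0.45), and the second probe of *Gpm6a* did not pass (adjusted p = 0.738). For *Taf15* a single probe was tested.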

How the data were processed

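Total RNA of the complete hippocampus was hybridized to Illumina MouseWG-6 v1.1 BeadChips. Per the labels, the tools vsn, limma and beadarray were used by the authors, who deposited a normalized intensity on a linear scale for 46632 probes on 36 arrays. The order of steps and the settings are not given in the sources used here. A second, unnormalized table was not used, because its 72 columns bear names that match no label, and detection limits are therefore not given.

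Intensities were taken to log2, and the 23316 probes (50%) with the higher mean over the 12 arrays of a genotype were tested. For each probe a model with technical set and mouse was fitted with limma 3.58.1 in R 4.3.3 (lmFit, eBayes), and the mouse coefficients were tested together by the moderated F test with Benjamini-Hochberg adjustment over all tested probes and a threshold of 0.05. The intraclass correlation is (MSA - MSE)/(MSA + MSE), from the mean squares between mice (MSA) and within (MSE), with a 95% confidence interval from the F distribution. The SD between mice is the root of the excess variance, set to 0 where it was negative. The steps were tested on simulated data. Precision is limited by 2 arrays a mouse and 6 mice.

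Symbols came from the platform annotation (1 symbol for 29976 probes, several for 10, none for 16646), 29921 of them updated through the reference table. The members and the 33 gene lists were chosen with earlier results of these data known. Named genes are the 20 with the largest SD among those that passed, the 10 with the highest intraclass correlation and an SD above the median of those that passed, the 10 with the largest SD that passed in both genotypes, up to 4 per list by adjusted p (smallest first), and the 5 with the largest SD between arrays. *C1ql2*, *Fibcd1*, *Dusp1*, *Fkbp5*, *Sgk1*, *Dbp*, *Prox1*, *Pvalb*, *Sst*, *Camp*, *Gapdh*, *Slc4a5*, *Slc13a4*, *Otx2* and *H4c1* were named outside this rule, after their values were seen. Alternatives were another filter, normalization, offset, variance model and centring, the block by number, the replicate block and leaving out each mouse. The choroid plexus covariate and the fit without mice 3 and 4 were added after the data had been seen.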

Additional observations from a re-analysis of the deposited data

Results flagged for a closer look

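Among the 121 named genes that differed between wildtype mice and the 33 list means, 11 had a single mouse far from the other 5, by the gap to its nearest neighbour as a share of the whole range. Chance alone gives about 1 in 20 such values, so the 11 are not far from what chance gives. The items also overlap, since *Gh* belongs to the hypothalamus and pituitary list. Mouse 4 stood high for *Gh* (share 0.909), *Gpc3* (0.683), *Cacng5* (0.682), *Prkcd* (0.658) and *Lbhd2* (0.629), and for the mean of the hypothalamus and pituitary list (0.895) and of the MHC list (0.685). Mouse 5 stood high for *Lcn2* (0.748) and for the mean of the glucocorticoid list (0.766), and low for *Slco1a4* (0.651). Mouse 2 stood low for *Syndig1l* (0.711). None of these values was given an explanation or a test of a cause.

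The difference between numbers 1 to 3 and 4 to 6 was compared between wildtype and CamkII-Cre mice. No probe passed this limma test of the interaction (lowest adjusted p = 1.00), with 646 at an unadjusted p under 0.05.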

How the results depend on the processing

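The 5870 probes that differed between wildtype mice became 2945 without a filter, 2246 with a plain F test, 675 without centring by set and 3548 with a replicate block over both genotypes, which tests mice within a number. Leaving out each mouse in turn gave 3787 (without mouse 2) to 5820, with 3717 of the 3787 among the 5870. The median intraclass correlation of 0.44 became 0.21 without a filter, 0.60 for the brighter 25% and -0.0074 without centring by set, and 0.41 to 0.48 without each mouse. For CamkII-Cre mice the 5000 became 2008 without a filter, and 2385 (without mouse 1) to 4596 without each mouse. The 2972 shared probes became 1126 without a filter. All other alternatives stayed within 1.5 times the count or within the jackknife error of the median (0.050). The causes were not tested, except that an unfiltered fit adjusts over 46632 probes and centring removes the shift between sets. The same numbers do not mark a shared animal, and their deviations correlated at -0.24 to 0.59 between genotypes, so the pairing was not used. Of the 121 named genes that differed, 73 lost the call without centring, 38 with the plain F test, 30 without a filter and 20 with the choroid plexus covariate. Without mice 3 and 4, 115 of the 121 were tested and 30 of these lost the call. Those lost with the covariate included *Cldn2*, *Calml4*, *Folr1*, *Aqp1*, *Sostdc1* and *Ace*, and 8 of 21 choroid plexus genes passed there. The covariate is the mean over these same 21 genes, so losses among them follow from how it was built. With the covariate the glucocorticoid list had 12 calls and the immediate early list 13.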

Other observations

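Histone genes of the replication-dependent clusters, noticed after their values were seen, moved together between wildtype mice. Of 37 such genes tested at their brightest probe (symbols beginning H2ac, H2bc, H3c or H4c) 33 differed (89.2%), and for 32 of the 37 mice 4 and 5 held the highest values. *H4c8* ran from 8.83 through a median of 9.17 to 10.50, with SDs of 0.733 between mice and 0.0487 between arrays (adjusted p = 2.24e-07). *H4c1* was at 9.90 in mouse 4 and 9.70 in mouse 5, against 8.31 to 8.59 in the others. The median SD over the 37 genes was 0.288 between wildtype mice, 0.152 between CamkII-Cre mice, where 18 differed, and 0.155 among Braf-flox mice. These transcripts are nearly identical within a family, so that a probe can pick up several of them, and the genes are not independent of each other. Both tested probes of *H4c8* gave the same order (r = 0.994).

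Among the 383 probes with a range over 1 log2 unit the mouse farthest from the median was mouse 6 on the low side for 111 and mouse 3 on the high side for 98. Mouse 2 was farthest on the low side for 51 and mouse 4 on the high side for 39.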
